A study of Mus musculus with 3 samples.

Results

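The 29 genes described here make, sense, move and store cholesterol, and were taken by name from the 31053 genes counted in epidermal cells of mouse ear skin. All 29 names were found, and the choice was made with earlier results of these data known. They comprise 18 enzymes of cholesterol synthesis, 5 proteins that sense sterols and control synthesis, 3 carriers within the cell, 2 exporters and 1 esterifying enzyme. The mice were C57BL/6N, a common inbred strain, at 9 weeks of age, and no treatment or modified gene is given. Cells were freed with dispase and trypsin, frozen, and later captured in droplets in 3 libraries, replicates 1, 2 and 3 of a single group. The labels do not say whether these stem from different animals, so each p-value below measures the spread between libraries, which may be technical.

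Of 6078 deposited cell barcodes, 5340 were kept, those with 500 or more genes detected and a mitochondrial share of UMIs of 10% or less, with 944, 2212 and 2184 in replicates 1, 2 and 3. A UMI is a molecular tag that counts a captured transcript once. The groups were set by fixed marker shares of a cell's UMIs. Basal cells, the attached layer that divides, had at least 0.5% Krt5 and Krt14, under 0.5% Krt1 and Krt10, and under 1% Lor. Spinous cells, the first layer above, had at least 0.5% Krt1 and Krt10 and under 1% Lor, and granular cells, the last living layer before the cornified surface, had at least 1% Lor. Follicle cells had at least 2 of the genes Sox9, Fst, Lgr5, Cd34 and Wif1 detected. Cells with at least 5 UMIs of Krt79 and Defb6 together form the Krt79+Defb6 group, named after its rule. These gates gave 2298 basal, 2228 spinous, 413 granular, 109 follicle and 118 Krt79+Defb6 cells, while 13 cells met both of the last 2 rules and 161 met none.

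Levels are given as CPM, UMI counts per 1000000 UMIs of the cells summed, called plain where no further scaling was applied. Markers that took no part in the basal gate summed to between 2279 and 2449 plain CPM in basal cells and between 380 and 452 in spinous cells. Further granular markers reached between 15865 and 21033 in granular cells. The markers listed as spinous summed to between 17523 and 19069 in spinous cells. They came to between 38098 and 41656 in granular and between 19631 and 23839 in Krt79+Defb6 cells, so that list does not single out the spinous layer. Median depth rose from 8447 UMIs per cell in basal to 14567 in spinous and 19852 in granular cells, and the median mitochondrial share was 4.66%, 3.68% and 1.79%. Between libraries, 11 barcodes were shared among the cells kept. Values are sums over the cells of a group in a library, and follicle cells (29, 40 and 40) and Krt79+Defb6 cells (16, 24 and 78) gave the smallest sums. Among markers of other cells in the layers, each T cell marker other than Thy1 was at most 2.31, while Thy1 had between 265 and 339 in basal cells. The sum of melanocyte markers was at most 2.26 and that of fibroblast markers at most 18.4 plain CPM in any library. Of the Langerhans markers, Cd207 was at most 0.73, while Cd74 reached 58.4, H2-Aa 25.8 and H2-Ab1 19.6 in the granular cells of replicate 2 and at most 10.4 elsewhere in the layers. Epcam, also on that list, had at most 116 in any basal library and between 710 and 866 in granular cells. The part of these markers in the values below was not tested.

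Cholesterol is built from acetyl-CoA through mevalonate, isoprenoid units, squalene and lanosterol. When membrane sterol is low, the carrier protein Scap brings the transcription factor Srebf2, and its relative Srebf1, to the Golgi for activation, and together they switch on most genes of the route. When sterol is high, the Insig proteins hold Scap back. In the epidermis cholesterol is one of the main lipids that granular cells secrete to form the water barrier, together with ceramides and fatty acids.

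Proximal promoters illustrate what the members share in sequence. The RefSeq-based promoter table (GRCm38.p6, 250 bases before to 50 after each start) held 23 of the 29 members, and Fdps, Fdft1, Sqle, Stard4, Npc1 and Abcg1 had no entry. Both strands were searched for the letters TCACNCCAC, a form of the sterol regulatory element that Srebf proteins bind, for CCAAT, the box bound by NF-Y, and for GGGCGG, the box bound by Sp1. Matches of different motifs overlapped 0 times in these windows, and a match describes letters and not a bound site. CCAAT stood in the window of 20 of the 23 members (87.0%), against 42.8% of the 8547 genes that were both tested and listed. GGGCGG stood in 22 members (95.7%) against 71.3%, and the sterol element in 1 member (4.35%) against 1.40%. Shown are the only member with that element, the member with most CCAAT boxes and an exporter with none, each as the 250 bases before the start. Capitals mark TCACNCCAC and CCAAT, the latter reading ATTGG where it lies on the other strand.
Hmgcs1, chr13:119690101-119690350, plus strand: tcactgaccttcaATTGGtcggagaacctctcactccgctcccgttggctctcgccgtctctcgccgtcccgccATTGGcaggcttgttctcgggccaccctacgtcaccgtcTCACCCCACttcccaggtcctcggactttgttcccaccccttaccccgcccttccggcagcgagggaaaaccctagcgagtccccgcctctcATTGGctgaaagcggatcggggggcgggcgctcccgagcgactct
Mvk, chr5:114444019-114444268, plus strand: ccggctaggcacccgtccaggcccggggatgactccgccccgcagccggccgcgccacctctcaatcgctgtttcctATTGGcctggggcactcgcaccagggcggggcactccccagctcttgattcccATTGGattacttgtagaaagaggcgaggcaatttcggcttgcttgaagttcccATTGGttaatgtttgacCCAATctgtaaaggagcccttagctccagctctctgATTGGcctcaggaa
Abca1, chr4:53159896-53160145, minus strand: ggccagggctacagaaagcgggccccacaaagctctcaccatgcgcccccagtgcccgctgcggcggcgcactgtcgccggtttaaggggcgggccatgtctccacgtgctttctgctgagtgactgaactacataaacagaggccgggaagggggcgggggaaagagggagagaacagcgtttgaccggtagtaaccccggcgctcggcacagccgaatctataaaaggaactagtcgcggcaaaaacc
In Hmgcs1 the sterol element begins at position -137, counted from the start. Mvk holds 5 CCAAT boxes in these 250 bases, Hmgcs1 holds 3, and Abca1 holds none. The synthesis enzyme Acat2 and the regulator Scap had none in their windows either.

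The first comparison follows the genes from the basal to the spinous layer. All 18 enzymes of synthesis were higher in spinous cells, by between 0.69 and 4.15 on the log2 scale, with a median of 2.59. Of all 29 members, 24 were called higher and 2 lower, while among the 10893 genes tested 34.4% were called higher and 32.2% lower (edgeR quasi-likelihood test on summed UMI counts, adjusted p under 0.05). The median of the members was 1.91 and that of all tested genes 0.02. With total UMIs in place of TMM scaling 22.1% of all genes were higher and 49.7% lower, with a median of -0.34, and 23 members were higher and 3 lower. Summed over the 18 enzymes, transcripts made up 655, 523 and 582 plain CPM in the basal cells of the 3 libraries and 1988, 1640 and 1783 in the spinous cells.

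Levels of single genes below are TMM-scaled CPM unless said otherwise, where TMM sets the bulk of genes equal between groups, and folds are on the same scale. Sqle, squalene epoxidase, an oxygen-requiring and rate-limiting step of the route, had 7.13, 2.34 and 5.63 in basal cells of replicates 1, 2 and 3. In spinous cells it had 90.0, 78.7 and 92.8, a log2 change of 4.15 ± 0.24 (SE, n = 3 libraries, edgeR adjusted p = 1.58e-12). The spinous values lay far above every basal value. Mvd, the decarboxylase that yields isopentenyl diphosphate, went from 4.85, 1.99 and 3.00 to 63.6, 41.0 and 47.7, a log2 change of 3.96 ± 0.20 (edgeR adjusted p = 2.19e-13). Stard4, a soluble carrier that moves cholesterol between membranes, rose from 5.56, 4.44 and 5.81 to 57.5, 53.7 and 63.1, which is 11-fold (edgeR adjusted p = 1.48e-14). For each of these genes, every spinous library lay above every basal library.

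Among the first enzymes of the mevalonate part, Pmvk and Mvk, the kinases that act in sequence on mevalonate, were 7.41-fold and 6.24-fold higher in spinous cells. Acat2, which joins acetyl-CoA units, was 2.15-fold higher, and Hmgcs1, the synthase that follows it, 1.76-fold. Hmgcs1 was already abundant in basal cells, at 144, 153 and 141, and reached 278, 224 and 268. The isoprenoid enzymes Idi1 and Fdps, which make and join the building blocks, rose 5.25-fold and 5.81-fold. Fdft1, which makes squalene, rose 3.76-fold, and Lss, which closes squalene oxide into lanosterol, 8.53-fold.

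The 8 enzymes between lanosterol and cholesterol also rose, though unevenly. Cyp51, which removes the first methyl group of lanosterol, was 8.47-fold higher, Tm7sf2, a sterol reductase, 7.76-fold, Hsd17b7, a ketosteroid reductase, 7.11-fold, and Msmo1, a methyl sterol oxidase, 6.36-fold. Dhcr7, the reductase of the last step, was 5.60-fold higher and Sc5d, the desaturase before it, 3.20-fold. Nsdhl, the decarboxylating partner of Msmo1, rose 2.69-fold. Ebp, the isomerase, changed least among the enzymes, from 57.6, 62.2 and 55.3 to 98.1, 96.6 and 88.3, a 1.61-fold rise (edgeR adjusted p = 6.38e-06).

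Among the regulators, Srebf2 rose 2.78-fold and Srebf1 1.66-fold, and Insig1, a sterol-sensing retention protein whose gene is itself a target of Srebf factors, rose 6.98-fold. Its partner Insig2 had 35.8, 38.5 and 32.7 in basal and 38.5, 41.6 and 35.1 in spinous cells, a log2 difference of 0.11 ± 0.10 that was not called (edgeR adjusted p = 0.37). Scap had 30.9, 31.1 and 35.7 against 42.5, 45.3 and 47.7, a rise of 0.47 ± 0.11 (edgeR adjusted p = 0.000488). With total UMIs in place of TMM, Scap was no longer called, at 0.12, and Insig2 was called lower, at -0.25 (edgeR adjusted p = 0.0364).

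Carriers and exporters did not follow the enzymes as a whole. Npc1, the lysosomal membrane protein that releases cholesterol taken up by the cell, rose 1.70-fold, although the libraries of the layers overlapped. Npc2, its soluble partner, had 152, 163 and 140 in basal and 177, 174 and 160 in spinous cells, and was not called (edgeR adjusted p = 0.131). Abca1, which exports cholesterol to apolipoproteins, fell from 10.3, 18.9 and 14.3 to 4.76, 7.20 and 6.07, a log2 change of -1.28 ± 0.17 (edgeR adjusted p = 8.59e-07). Abcg1, the other exporter, fell from 7.70, 14.4 and 8.72 to 2.18, 6.19 and 3.49, a log2 change of -1.33 ± 0.19 (edgeR adjusted p = 2.15e-06). Both exporters were thus lower in every spinous library than in any basal library. Soat1, which stores cholesterol as ester, was nearly silent in the layers, with 10 UMIs in 2298 basal cells and 5 in 2228 spinous cells.

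**Figure D1:**
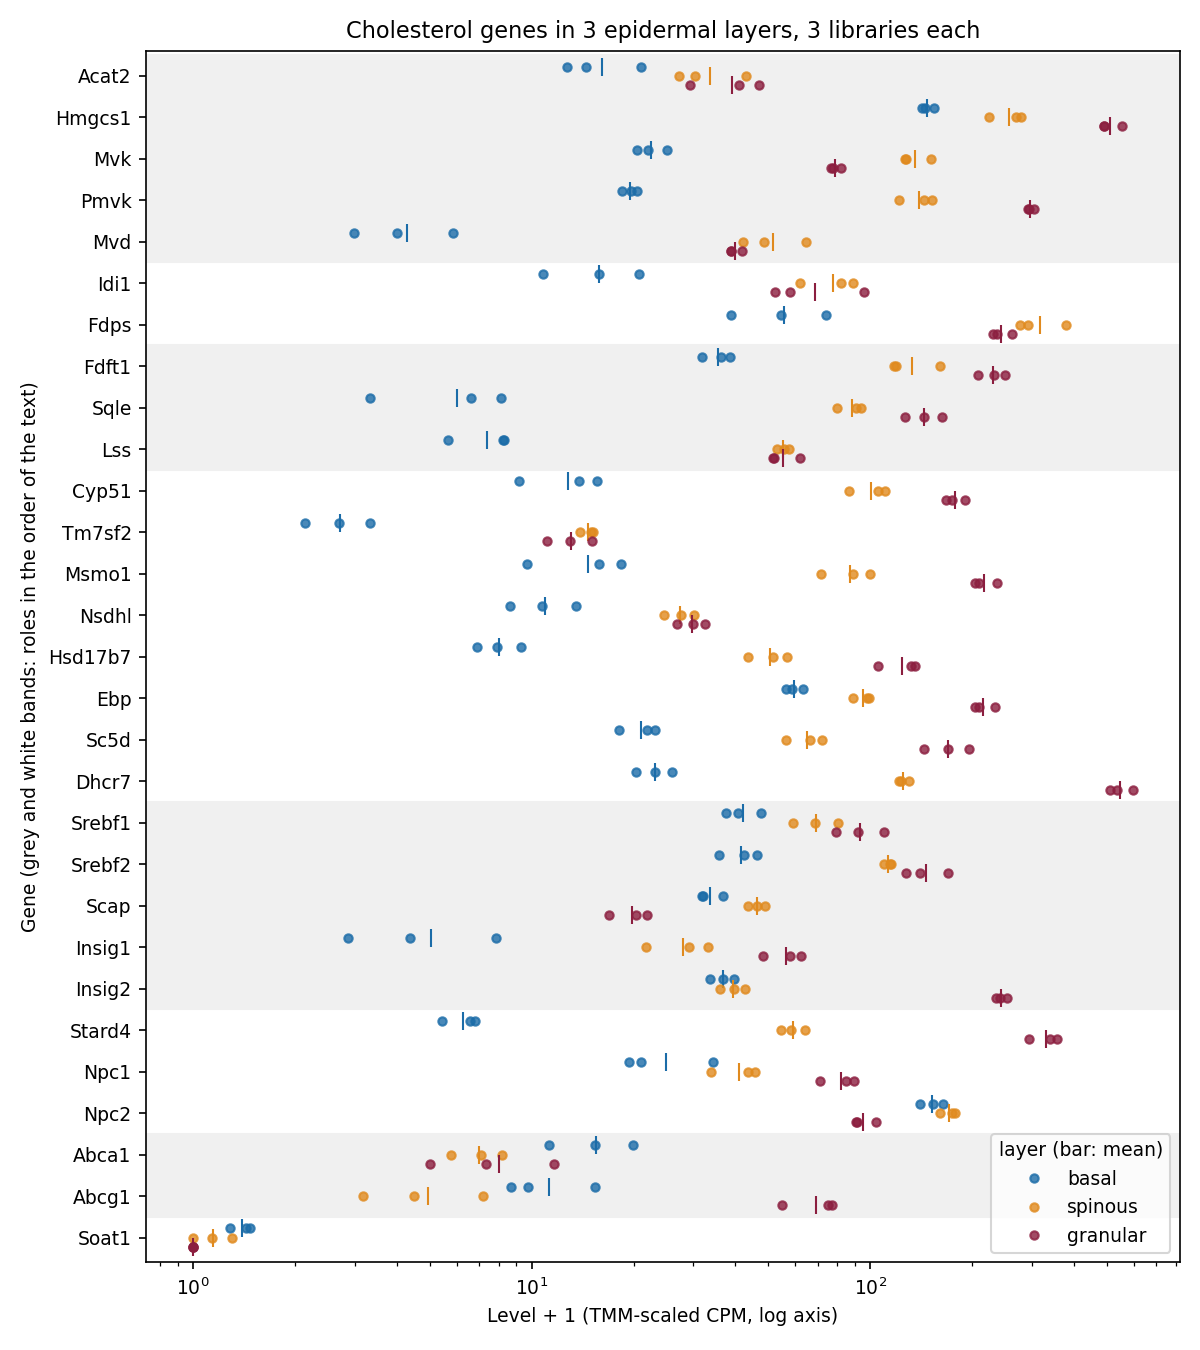
Level of each of the 29 genes (TMM-scaled CPM plus 1, log axis) in basal, spinous and granular cells, with a point for each of 3 libraries and a bar at the mean. The spinous points lie to the right of the basal points for all 18 enzymes, and to the left for Abca1 and Abcg1.

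Under TMM, total UMIs, and total UMIs without the genes that define the groups, 23 members were called higher each time and 2 lower. Across 16 alternatives of filter, gate, scaling, tool and libraries, between 23 and 25 members were called higher and 2 or 3 lower. Cell depth and mitochondrial share moved with the layers as given above. Among those alternatives were cells thinned to 3000 UMIs and cells with at most 5% mitochondrial UMIs.

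From spinous to granular cells the route split. Under TMM, 17 members were called higher and 3 lower, with a median log2 change of 0.73, against 31% higher and 37.2% lower among all tested genes and a median of -0.22. Scaling matters in this comparison, since the TMM factors were between 0.53 and 0.59 in granular and between 0.97 and 1.00 in spinous libraries. With total UMIs 9 members were called higher and 12 lower, with a median of -0.08, while 17.8% of all genes were higher and 63.1% lower and their median was -1.02. The direction of single members is therefore given only where it was called alike under TMM, total UMIs, and total UMIs without the genes that define the groups. This held for 9 higher and 3 lower members, 2 were not called under any of the 3, and 15 differed. The spinous libraries serve both comparisons of layers, so the 2 sets of values are not independent.

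The 9 members higher in granular cells under each scaling were Pmvk, Msmo1, Hsd17b7, Ebp, Sc5d, Dhcr7, Insig2, Stard4 and Abcg1. Abcg1 changed most, from 2.18, 6.19 and 3.49 to 53.9, 73.9 and 76.1. That is 17.01-fold, a log2 change of 4.09 ± 0.18 with TMM and 3.28 ± 0.18 with total UMIs (edgeR adjusted p = 1.51e-14 and 8.62e-13). The exporter that was lower in spinous than in basal cells was thus highest in granular cells among the layers, while Abca1 stayed at 3.99, 6.32 and 10.7 and was not called.

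Insig2 had 235, 253 and 241 in granular cells, against at most 41.6 in any spinous library, a log2 change of 2.67 ± 0.10 with TMM and 1.87 ± 0.10 with total UMIs (edgeR adjusted p = 1.59e-15 and 1.52e-12). Its paralog Insig1 rose from 32.2, 20.7 and 28.1 to 56.9, 47.4 and 61.6 with TMM, but was not called with total UMIs (edgeR adjusted p = 0.215). Stard4 rose to 355, 295 and 339, by 2.50 ± 0.12 with TMM and 1.70 ± 0.12 with total UMIs (edgeR adjusted p = 2.95e-14 and 5.10e-11). For Insig2 and Stard4 the granular libraries lay far above all spinous ones.

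Of the 8 enzymes after lanosterol, which finish the sterol, Dhcr7, Sc5d, Hsd17b7, Ebp and Msmo1 were among the 9. Dhcr7 rose from 122, 121 and 129 to 511, 596 and 536, by 2.14 ± 0.13 with TMM and 1.35 ± 0.13 with total UMIs (edgeR adjusted p = 3.06e-12 and 9.83e-09). Sc5d rose by 1.41, Hsd17b7 by 1.32 and Ebp by 1.18 with TMM, and by 0.61, 0.52 and 0.38 with total UMIs. Msmo1 rose by 1.35 and 0.55 on these scales, and Pmvk, the only earlier enzyme, by 1.11 and 0.31.

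Mvk, Scap and Npc2 were lower in granular cells under each scaling. Mvk had 150, 127 and 126 in spinous and 80.8, 76.5 and 75.6 in granular cells, a log2 change of -0.78 ± 0.10 with TMM and -1.58 ± 0.11 with total UMIs (edgeR adjusted p = 7.49e-07 and 3.06e-11). Mvk and Pmvk catalyse successive steps, and their granular libraries moved in opposite directions from their spinous ones. Scap fell to 16.0, 20.9 and 19.4, by 1.26 on the log2 scale with TMM, below its basal level too. Npc2 fell to 89.8, 90.4 and 103, by 0.84 on the same scale.

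The smallest differences with TMM were those of Lss, Idi1 and Nsdhl. Lss had 54.6, 52.1 and 56.6 in spinous and 50.9, 50.6 and 61.1 in granular cells, Idi1 88.1, 60.9 and 80.8 against 56.9, 51.2 and 95.01, and Nsdhl 29.2, 23.6 and 26.6 against 28.9, 25.9 and 31.5. Their libraries overlapped. With total UMIs all 3 were called lower, as were Mvd, Fdps, Tm7sf2 and Acat2. Srebf1 and Srebf2 were called higher with TMM, by 0.44 and 0.38, and lower with total UMIs, at -0.37 and -0.42, so their direction rests on the scaling. The higher call of Srebf2 also ended in 4 of 15 alternatives with no change of direction, such as without replicate 3 (log2 change 0.22, edgeR adjusted p = 0.274). Hmgcs1, Fdft1, Sqle, Cyp51, Insig1 and Npc1 were called higher with TMM only.

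**Figure D2:**
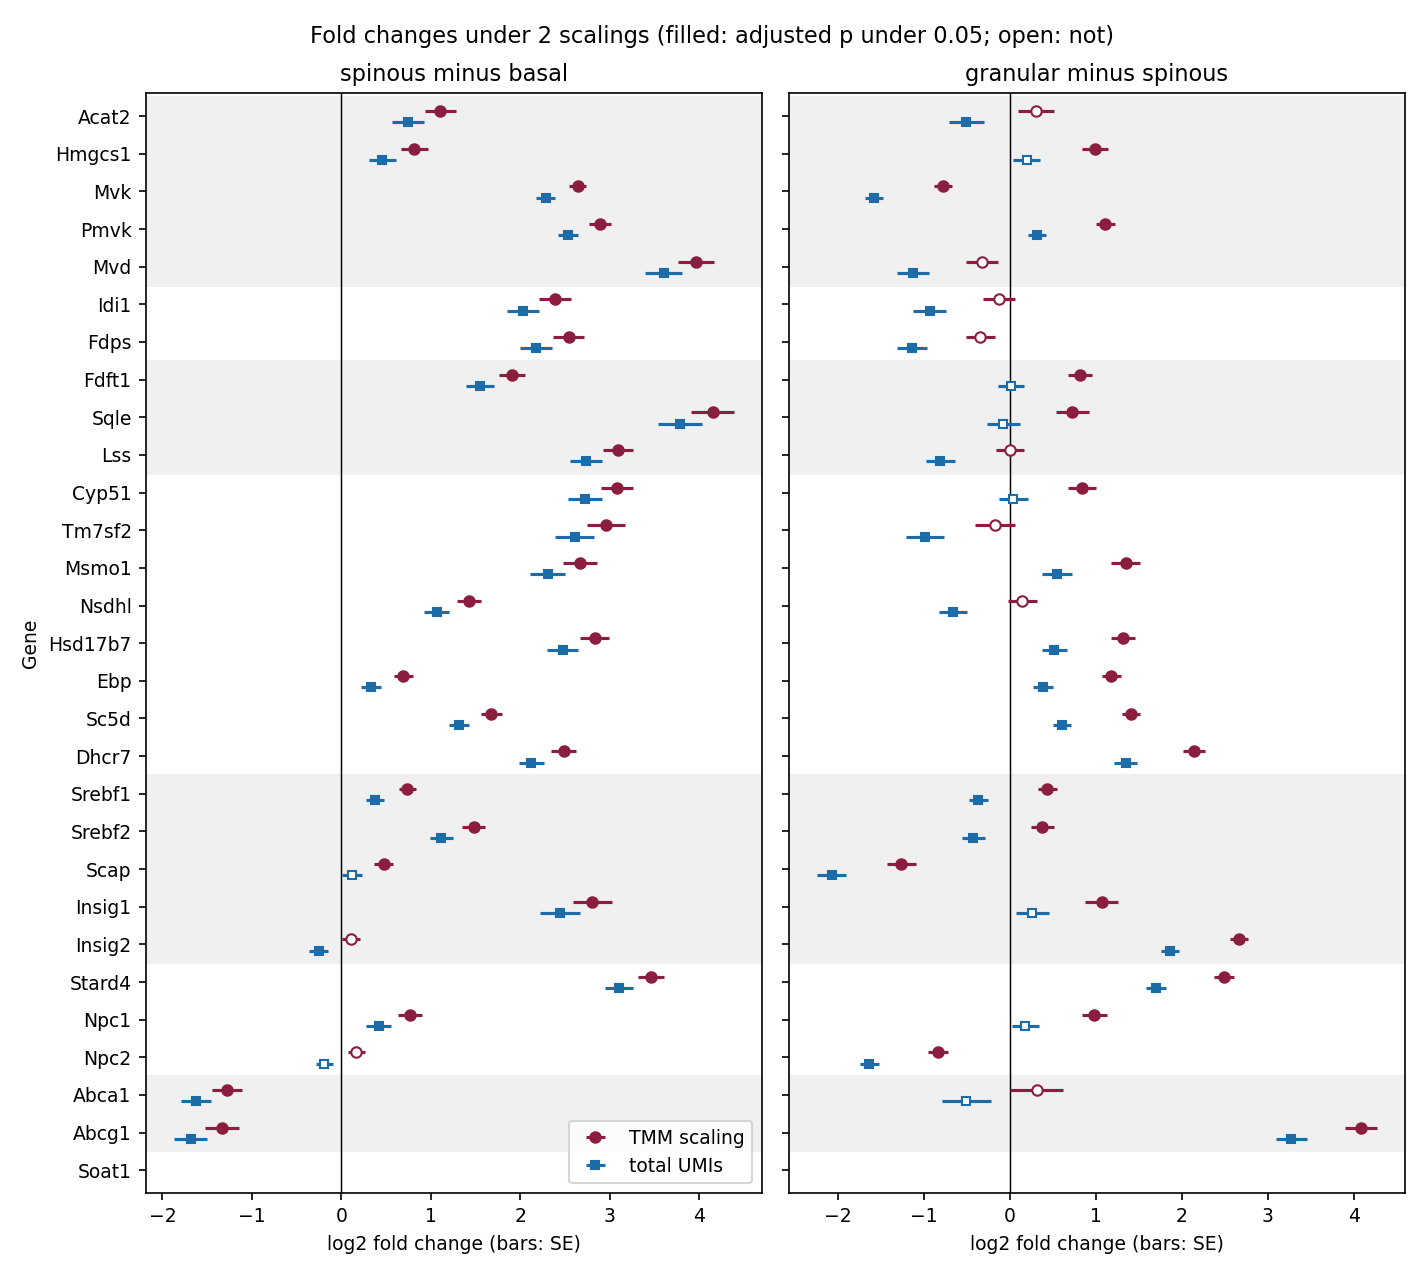
Log2 fold change with its SE for each member, spinous minus basal and granular minus spinous, with TMM scaling (circles) and with total UMIs (squares), filled where edgeR called it. Soat1 is left out because it was nearly silent in the layers. In the granular comparison total UMIs move every gene to the left, and 9 members stay called on the right under both.

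As plain CPM, with no TMM, the 18 enzymes together came to 1803 ± 175 in spinous and 1806 ± 42.3 in granular cells (SD, n = 3). The 8 enzymes after lanosterol went from 579, 499 and 567 to 867, 853 and 811. The isoprenoid enzymes Idi1 and Fdps went the other way, from 451, 347 and 358 to 175, 161 and 191. The libraries of the layers did not overlap in either sum on this scale. With TMM neither isoprenoid gene was called, with Idi1 at -0.12 and Fdps at -0.34 on the log2 scale (edgeR adjusted p = 0.57 and 0.078). Every granular library of Fdps still lay below every spinous library with TMM, while those of Idi1 overlapped. The size of their fall thus depends on the scaling.

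Against basal cells, granular cells had 25 members higher and 3 lower with TMM, with 37.3% and 43% of all tested genes called in those directions, and a member median of 2.72. With total UMIs 21.9% of all genes were higher and 66.4% lower, their median was -1.38 and that of the members 1.57. Under each scaling 22 were higher and 3 lower. Stard4 differed most, 62.1-fold, followed by Sqle at 29.3-fold and Dhcr7 at 24.7-fold. With total UMIs their log2 changes were 4.80, 3.71 and 3.47, against 5.96, 4.87 and 4.63 with TMM. The lower members were Scap (-0.79 on the log2 scale), Npc2 (-0.67) and Abca1 (-0.97), the last with overlapping libraries and not called without replicate 2 (edgeR adjusted p = 0.0904) or in cells thinned to 3000 UMIs (0.0535). This comparison shares its libraries with both comparisons above.

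The members were also followed along finer steps of keratin and loricrin content. The steps were 5 ranges of the Krt1 and Krt10 share, from under 0.1% to between 2% and 4% with Lor under 1%, and 3 ranges of Lor, from 1% to 10% and over. A range with 4% or more Krt1 and Krt10 held 42 cells and is not used, as its 9 cells in replicate 1 were too few for a profile. In replicates 2 and 3 its mean was above every step used for several members, such as Sqle (185), Cyp51 (195) and Srebf2 (161). For others, such as Fdps (190), it was below the highest step used. The peaks below are therefore those among the steps used. Of 28 members, Soat1 left aside, 11 had their highest mean level in the step with 2% to 4% Krt1 and Krt10, 5 in the first Lor step, 8 in the second and 2 in the last. With plain CPM these counts were 16, 5, 3 and 2, so the place of the peak depends on scaling for several members.

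Among the steps used, Dhcr7, Hsd17b7 and Stard4 peaked in the step with 5% to 10% Lor, and Abcg1 and Ebp in the last step, on both scales. Abcg1 rose from 0.86, 5.40 and 2.21 in the richest Krt1 and Krt10 step used to 4.95, 16.3 and 23.7, then 40.1, 67.9 and 104, and then 123, 231 and 123 along the Lor steps. Each library rose at every one of these steps. Insig2 was flat at 33.6, 35.5 and 31.3 in the first step and 43.6, 42.5 and 36.0 in the richest keratin step used, and stood at 124, 167 and 168 in the first Lor step.

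Mvk, Mvd, Idi1, Fdps, Lss, Tm7sf2, Nsdhl, Acat2, Scap, Srebf1 and Srebf2 peaked before Lor on both scales. Mvd had 81.6, 63.7 and 62.3 in its highest step, 41.3, 37.8 and 43.1 and then 24.8, 24.7 and 24.5 in the first Lor steps, and no UMI in the last. That step held 68 cells and 1306793 UMIs, for which a count of 0 allows up to 2.30 plain CPM. Tm7sf2 and Scap also had no UMI there, and Mvk had 10 UMIs. Dhcr7 had 381 UMIs in the same cells, Stard4 251 and Abcg1 114.

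**Figure D3:**
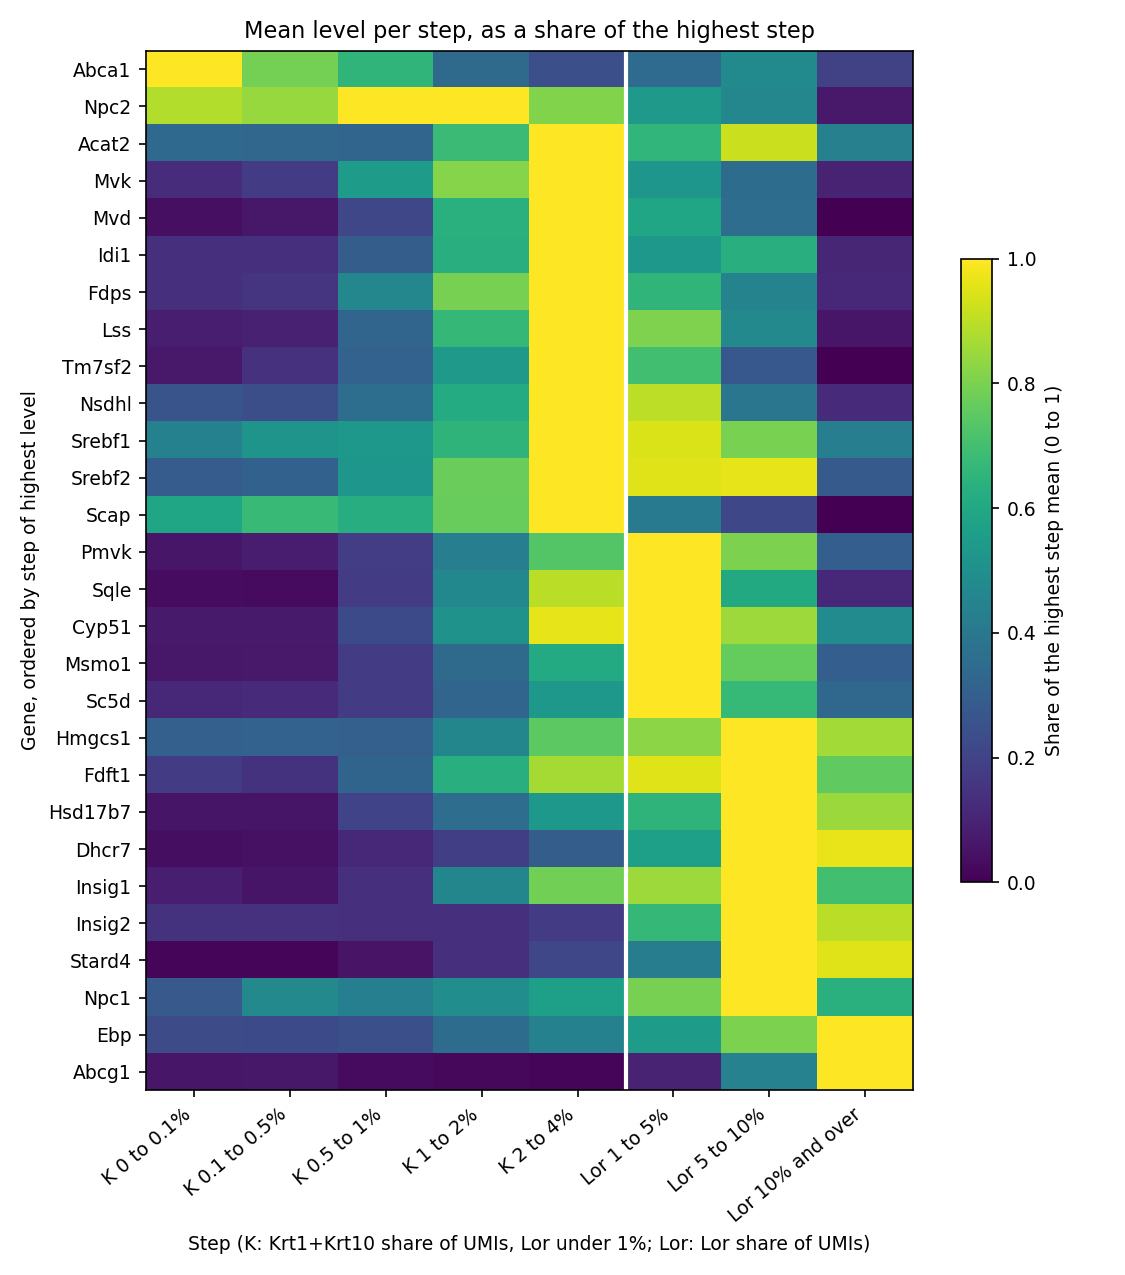
Mean level per step over the libraries (TMM-scaled), as a share of each gene's highest step among those shown, for 28 members ordered by that step. The columns left of the white line are steps of Krt1 and Krt10 content and the 3 on the right steps of Lor content. Mvk to Scap are brightest just before the line, and Abcg1 and Ebp in the last column.

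Cycling basal cells were compared with other basal cells of the same libraries. Cells with at least 2 UMIs over Mki67, Top2a, Cdk1, Birc5 and Ube2c numbered 488 of 2298. They carried more UMIs, with a median of 12350 against 8014 per cell, and the part of depth in the values below was not tested. Of the 27 members tested, 13 were called higher and 5 lower, against 21.7% and 18.4% of the 9936 genes tested, and their median log2 difference was 0.50. Tm7sf2 and Soat1 were too low to be tested.

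Stard4 led with 16.4, 18.4 and 13.1 in cycling and 2.69, 2.42 and 4.10 in other basal cells, 4.89-fold higher (edgeR adjusted p = 8.01e-09). Insig1 had 19.8, 6.63 and 6.88 against 3.49, 1.30 and 2.79, 4.04-fold higher (edgeR adjusted p = 2.46e-06). Each cycling library lay above every other basal library for both. Sqle was 3.53-fold higher, Fdft1 3.15-fold, Idi1 2.89-fold, Cyp51 2.36-fold, Acat2 2.15-fold, Msmo1 2.10-fold and Fdps 2.01-fold. Smaller rises were called for Hsd17b7, Nsdhl, Srebf2 and Ebp, at between 1.41-fold and 1.80-fold.

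Not every enzyme was higher in cycling cells. Hmgcs1 had 164, 175 and 175 against 194, 200 and 180, and Lss 9.06, 6.63 and 8.84 against 9.40, 5.78 and 9.31, and neither was called. Mvk, Pmvk, Mvd, Sc5d and Dhcr7 were not called either, with log2 differences between 0.25 and 0.77, nor were the regulators Srebf1 and Scap. Abca1 was lower, with 7.36, 9.58 and 10.8 against 15.8, 27.8 and 22.3, a log2 change of -1.19 ± 0.20 (edgeR adjusted p = 4.47e-06). Abcg1 (-0.66), Npc1 (-0.41), Insig2 (-0.38) and Npc2 (-0.26) were also called lower. Several of these calls were not stable. Without replicate 1 those of Abcg1, Npc1 and Hsd17b7 ended (edgeR adjusted p = 0.106, 0.176 and 0.189), without replicate 2 those of Insig2 and Nsdhl (0.0544 and 0.0924), and without replicate 3 those of Abcg1, Npc1 and Npc2 (0.162, 0.0814 and 0.113). With no library block the calls of Npc1, Npc2 and Abcg1 ended (edgeR adjusted p = 0.176, 0.0836 and 0.099), so that 2 members were lower. In all, the call of Npc1 ended in 7 of 11 alternatives and that of Abcg1 in 4, among them cells with at most 5% mitochondrial UMIs (edgeR adjusted p = 0.12 and 0.207).

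**Figure D4:**
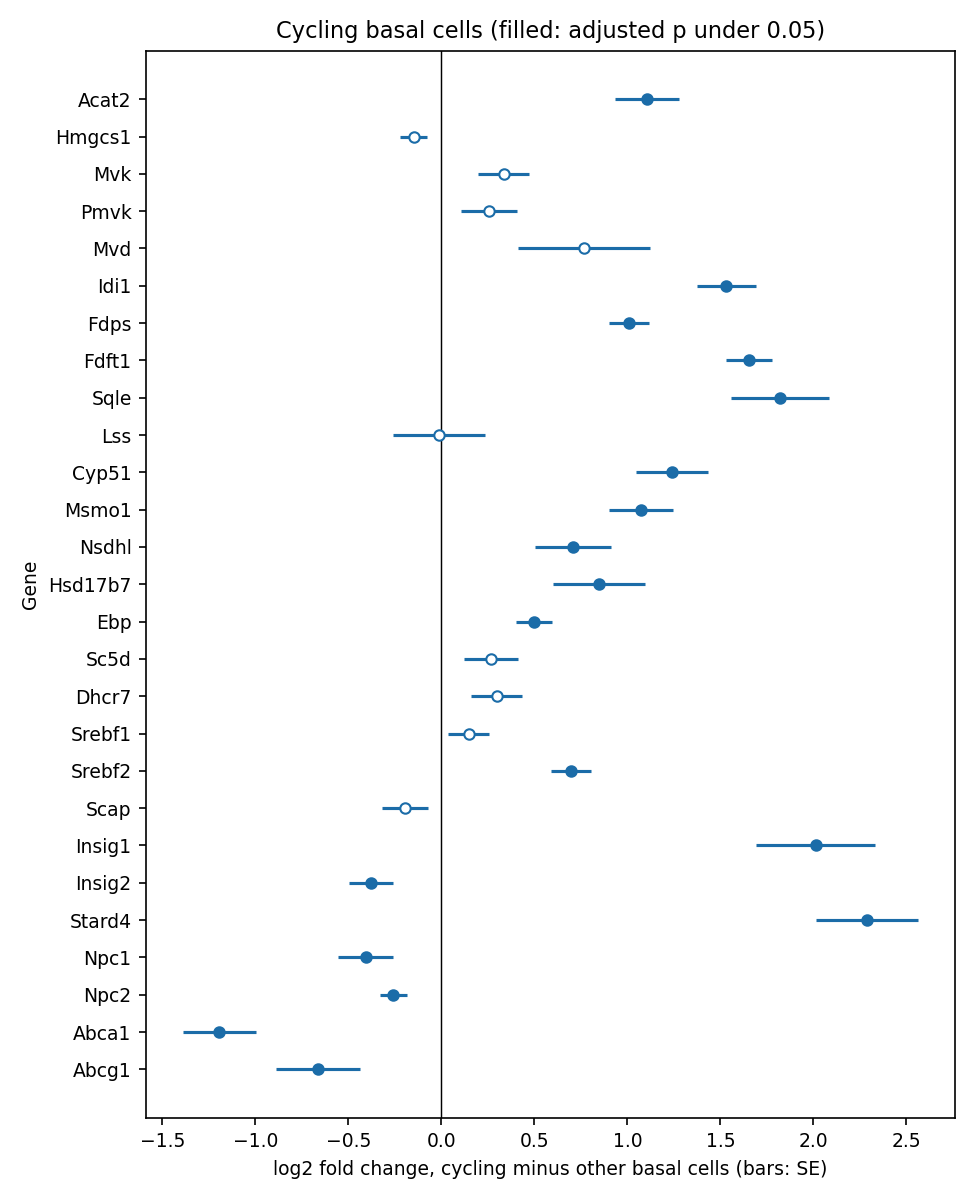
Log2 fold change with its SE for the 27 members tested, cycling minus other basal cells, filled where edgeR called it. Stard4 and Insig1 lie farthest right and Abca1 farthest left.

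Follicle cells, which are few and shallow at a median of 4440 UMIs, differed from basal cells by the test in 3 members. Of the cells that met the follicle rule, 75 also met the basal rule, 2 the spinous and 1 the granular one. These numbers include cells that met the Krt79+Defb6 rule too. Basal markers summed to 2232, 3020 and 2332 plain CPM in the group, against 2279, 2449 and 2374 in basal cells. The part of this overlap in the values below was not tested. Of 29 members, 2 were called higher (6.90%) and 1 lower (3.45%) than in basal cells, against 7.41% and 5.75% of all tested genes, and 26 were not called. With shares this near the background, the calls do not set the members apart from other genes. With total UMIs 9.28% of all genes were higher and 2.85% lower, with a median of 0.14. Pmvk had 28.95, 55.3 and 32.7 against 18.7, 19.5 and 17.5 in basal cells (edgeR adjusted p = 0.00939). Abca1 had 19.3, 41.5 and 35.7 against 10.3, 18.9 and 14.3 (edgeR adjusted p = 0.0272), and Hmgcs1 70.8, 93.3 and 38.7 against 144, 153 and 141 (edgeR adjusted p = 0.00194). Follicle and basal libraries did not overlap for these 3. The call of Pmvk ended without replicate 2 or 3 (edgeR adjusted p = 0.23 and 0.0587), and so did that of Abca1 (0.135 and 0.226), which also ended with no library block (0.125). The call of Hmgcs1 ended without replicate 3 (0.0625), so that no member was then called. With at most 5% mitochondrial UMIs the calls of Abca1 and Hmgcs1 ended as well (edgeR adjusted p = 0.377 and 0.218), as did that of Abca1 against basal cells without the cycling ones (0.0902). Follicle replicates also held markers of other cells, with melanocyte markers at 4.78, 14.7 and 140 and fibroblast markers at 148, 29.5 and 67.7 plain CPM, and their part in these values was not tested.

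Krt79+Defb6 cells had the highest summed level of the 18 enzymes, at 2494, 3448 and 2779 plain CPM, against 851, 717 and 474 in follicle cells and at most 1988 in any library of a layer. In 10 cells of replicates 2 and 3, described below, the sum was 10684, and without them the 3 libraries had 2494, 2162 and 2148. Many cells that met the Krt79+Defb6 rule also met a layer rule, 68 the spinous, 11 the granular and 18 the basal one. These numbers include cells that met the follicle rule too. Granular markers summed to 218, 2068 and 2394 plain CPM in the group, against at most 243 in spinous cells. The part of such cells in the values below was not tested. The group's median depth was 19291 UMIs per cell, against 8447 in basal and 14567 in spinous cells, and its part was not tested either. Against basal cells 26 members were called higher and none lower, where 28.4% of all tested genes were higher and 24.1% lower, and the median was 2.63. With total UMIs the shares of all genes were 20.9% and 38%, with a median of -0.39, and 1 member was lower. The 3 members not called, Npc2, Abca1 and Abcg1, had log2 differences of -0.10, 0.44 and -0.46, and at an unadjusted p under 0.05 or with DESeq2 0 members were lower as well. Against spinous cells 18 members were called higher and none lower, where 7.69% of all tested genes were higher and 3.33% lower, with a median of 0.74. At an unadjusted p under 0.05, 1 member was lower, and with DESeq2 13 were higher and 0 lower. With DESeq2, 194 of all genes were lower than in spinous cells. Other matching shares of all genes at an unadjusted p or with DESeq2 are not given here, for basal or for spinous cells. Msmo1 changed most among the enzymes, from 99.1, 70.4 and 88.2 in spinous to 158, 280 and 313, a log2 change of 1.60 ± 0.19 (edgeR adjusted p = 5.57e-06). Without the 10 cells described below it was 0.65, less than Sqle at 0.84. Insig2 had 90.1, 105 and 73.3, again above every spinous library, with a log2 difference of 1.16 ± 0.14 (edgeR adjusted p = 8.28e-06).

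Soat1 singled out a small part of this group. It had no UMI in the 16 cells of replicate 1, and 317 and 238 TMM-scaled CPM in replicates 2 and 3, against 2 UMIs in all 109 follicle cells and none in 413 granular cells. In replicate 2 all 130 UMIs came from 3 of 24 cells, and in replicate 3 334 of 335 came from 7 of 78 cells. Nearly all Soat1 UMIs of the group thus came from 10 cells. These 10 cells, chosen after their values were seen, held no UMI of Defb6 and 310 of Krt79. In plain CPM they had 18469 of Scd1, a fatty acid desaturase, 6934 of Mgst1 and 1849 of Cidea, a lipid droplet protein, all 3 on the list of sebaceous gland markers. The marker list summed to 254, 4751 and 2387 plain CPM in the Krt79+Defb6 cells of the 3 replicates and to at most 174 in any library of a layer. Follicle cells had 339, 152 and 161, so replicate 1 of the group lay below a follicle library.

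In the same 10 cells, Msmo1 stood at 2020 and Hmgcs1 at 1843 plain CPM, and Idi1 at 791 and Hsd17b7 at 726. The other Krt79+Defb6 cells had 155, 106 and 130 of Msmo1 in the 3 replicates. Sc5d was different, since it had no UMI among the 169311 of the 10 cells, which allows up to 17.7 CPM, while the remaining cells had 110, 85.1 and 95.4. Stard4 at 29.5 and Insig2 at 17.7 were also below the 85.1 or more and 74.1 or more of the remaining cells of each replicate. No test was made of these values.

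Without those 10 cells, 7 rather than 18 members were called higher than in spinous cells, namely Sqle, Cyp51, Msmo1, Ebp, Sc5d, Insig2 and Stard4. Their log2 changes were then 0.84, 0.57, 0.65, 0.48, 0.64, 1.30 and 0.91. Of the 10867 genes tested in that setting, 7.3% were higher and 2.83% lower. Without replicate 3, 4 members and 157 of all genes were called higher, against 838 of all genes with every library. Without replicate 2, 11 members were called higher, and the matching share of all genes is not given here. Against basal cells between 24 and 26 members were called higher in all 15 alternatives. There the call of Scap ended in 11 of the 15, with adjusted p up to 0.84 without replicate 3 (edgeR), and that of Npc1 ended without replicate 3 (0.0956).

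**Figure D5:**
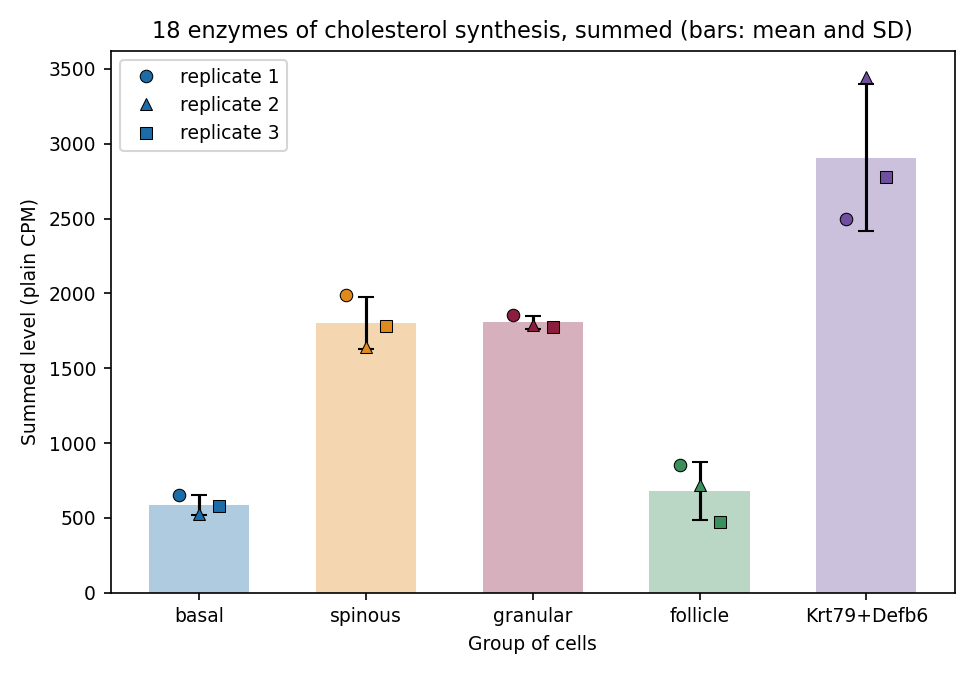
Summed level of the 18 synthesis enzymes (plain CPM) in 5 groups of cells, with a marker per library, bars at the mean and whiskers for SD. The Krt79+Defb6 libraries, from 2494 to 3448, all lie above those of the other groups.

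Neighbours of the pathway were taken from a list of 45 further genes in 5 groups, of which 37 were tested. From basal to spinous cells 21 were higher and 11 lower, with a median of 0.46, beside 34.4% and 32.2% of all tested genes. With total UMIs 16 were higher and 13 lower, beside 22.1% and 49.7%, and with DESeq2 15 were higher and 12 lower. Among the 8 genes that supply acetyl-CoA and fatty acids 7 were higher, among them Acly, which makes acetyl-CoA from citrate, by 2.65 ± 0.12 and Scd2, a desaturase, by 2.61 ± 0.14 on the log2 scale. Sult2b1, which turns cholesterol into cholesterol sulfate, went from 5.13, 3.62 and 6.75 to 227, 194 and 208, a log2 change of 5.32 ± 0.17 (edgeR adjusted p = 6.42e-16). Vldlr, a lipoprotein receptor, fell by 2.90, and Mylip, the ligase that removes lipoprotein receptors, by 1.03.

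From spinous to granular cells 13 of the 37 were higher and 14 lower with TMM, and 6 were higher and 22 lower with total UMIs. Of all tested genes 31% and 37.2% were called in these directions with TMM, and 17.8% and 63.1% with total UMIs, so the counts of the list lie near the background. Gramd1c, a member of the family that carries plasma membrane cholesterol to the endoplasmic reticulum, rose from 6.25, 4.72 and 4.33 to 115, 123 and 178, by 4.83 ± 0.16 with TMM and 4.01 with total UMIs. Nr1h2, an oxysterol receptor whose known targets include Abca1, Abcg1 and Mylip, rose from 61.3, 62.6 and 61.9 to 190, 188 and 183, by 0.79 on the log2 scale with total UMIs. Of these targets, Abcg1 was higher and Mylip lower in granular cells, the latter by 3.01, while Abca1 was not called under any scaling. Lrp1, another receptor for lipoproteins, fell from 41.7, 36.4 and 41.4 to 2.00, 3.16 and 4.36, a log2 change of -4.34 with total UMIs. Between follicle and basal cells 0 of the 37 were called, beside 7.41% higher and 5.75% lower among all tested genes. At an unadjusted p under 0.05, 2 were higher and 3 lower, and with DESeq2 1 was higher. The matching shares of all genes are not given here for those settings.

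Some members share sequence with other genes, and reads from those stretches cannot be assigned with certainty. Of all 50-base stretches of its transcripts, Acat2 shared 39.1% with Acat3, Fdps 26.2% and Idi1 17.7% with other annotated genes, Tm7sf2 9.87% with the overlapping gene Vps51, and Fdft1 9.38%. All other members shared under 3%. These shares are over whole transcripts, while the library kit captures 5' ends, and the share within the stretches read was not determined. Fdft1, Cyp51 and Npc1 overlap Ctsb, Akap9 and Rmc1 on the opposite strand, and the sources used here do not say how strand entered the counting.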

How the data were processed

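The 3 libraries of mouse ear epidermal cells each had a deposited matrix of raw UMI counts per gene and cell. Per the submitters' processing notes the authors used Cell Ranger 3.1.0 and genome build mm10, and other settings are not given in the sources used here. The library kit captures 5' ends of transcripts. The libraries held 68583868 UMIs. Of the barcodes, 738 were removed (395 under 500 genes, 598 over 10% mitochondrial UMIs, some both). No doublet caller was run, and an alternative leaves out the 2% of cells with most UMIs.

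Counts were summed per library and group. A cell that met the follicle or Krt79+Defb6 rule was in no layer, and profiles under 10 cells were left out. edgeR 4.0.16 (R 4.3.3) fitted all 5 groups with a block for the library, as all groups came from every library, after filterByExpr and TMM, with Benjamini-Hochberg adjustment over all genes tested and a threshold of 0.05. Cycling cells had a model of their own. Simulated data with known changes tested the fit. DESeq2 1.42.0 was an alternative. Limits of a zero are 3 counts and cover counting error only. Positions come from GENCODE M21 and promoters from RefSeq.

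The members, lists and tests were chosen with earlier results of these data known. Library values are given for the 3 largest and 3 smallest changes between layers, members against their role, and members whose direction differed.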

Additional observations from a re-analysis of the deposited data

How the results depend on the processing

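The counts of members called against basal cells moved little. Over 16 alternatives 23 to 25 members were higher in spinous and 22 to 25 in granular cells, and over 15 alternatives 24 to 26 in Krt79+Defb6 cells. The comparison of granular with spinous cells depended most on scaling, and calls in the follicle and Krt79+Defb6 groups often changed when a library was left out. For the other alternatives the cause of a change was not tested.

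With total UMIs, spinous minus basal gave 2402 genes higher and 5409 lower, with Insig2 at -0.25 and Npc2 at -0.19 on the log2 scale. Granular minus spinous gave 9 members higher and 12 lower, 1937 and 6874 of all genes, and Acat2 -0.51, Sqle -0.076, Lss -0.81, Nsdhl -0.66, Srebf1 -0.37, Srebf2 -0.42 and Abca1 -0.51. Granular minus basal gave 2391 and 7237 genes, follicle minus basal 310 lower, and Krt79+Defb6 minus basal 1 member and 4134 genes lower. With total UMIs without the genes of the rules, the values in the same order were 2379, 5429, -0.26 and -0.20; 9, 11, 2016, 6626, -0.43 for Acat2, -0.00055 for Sqle, -0.73, -0.59, -0.29, -0.35 and -0.44; then 2478, 7103, 322, 1 and 4103.

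DESeq2 gave Insig2 -0.032 in spinous minus basal, 5 members higher and 415 genes lower in follicle cells, and 194 genes lower in Krt79+Defb6 minus spinous; it was not run for cycling cells. Basal cells without cycling cells gave Insig2 -0.033, and 5 members higher and 2 lower in follicle cells. Doubled thresholds gave 6 members lower in granular minus spinous, with Lss -0.42 and Nsdhl -0.35, and in Krt79+Defb6 minus spinous 10 members higher and 241 genes lower. Layers set by their own rule alone gave 5 members lower in granular minus spinous and Lss -0.00071. At most 5% mitochondrial UMIs gave Lss -0.042, 1 member higher and 0 lower with 435 genes higher and 300 lower in follicle cells, and 10 members higher in Krt79+Defb6 minus spinous. No filter on low counts gave 5 members lower in granular minus spinous, Lss -0.051, and 4 members higher, 2 lower and 1134 genes lower in follicle cells. Fitting only the groups compared gave 5 members lower in granular minus spinous, and 9 members higher with 479 genes higher and 119 lower in Krt79+Defb6 minus spinous. At 1000 genes per cell Lss was -0.063, and without the 2% of cells with most UMIs -0.13.

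The library block is a pairing by construction, since a library was split into all groups. With no replicate block, 1 member was higher in follicle cells and 2 lower in cycling cells. In Krt79+Defb6 minus spinous it ended the calls of Mvd, Fdft1, Ebp, Sc5d and Insig1 (edgeR adjusted p = 0.0567 to 0.165). Deviations of 2 groups of the same library correlated across genes at 0.22 to 0.27 for spinous and basal, 0.084 to 0.11 for granular and basal, -0.018 to 0.15 for follicle and basal, and 0.048 to 0.10 for Krt79+Defb6 and basal cells.

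Chosen after seeing the data, thinning each cell to 3000 UMIs gave 2011 genes higher and 2096 lower in spinous minus basal, with Insig2 -0.21 and Npc2 -0.037. It gave 5 members lower, 1855 and 2342 genes, Lss -0.36 and Srebf1 -0.083 in granular minus spinous, and 2260 and 2796 genes in granular minus basal. Leaving out the cells with Soat1, also chosen afterwards, gave 7 members higher in Krt79+Defb6 minus spinous, beside 7.3% of all tested genes.

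Leaving out each replicate gave Insig2 -0.030 to 0.12 in spinous minus basal, and in granular minus spinous Acat2 -0.019 to 0.36, Lss -0.12 to 0.015 and Abca1 -0.26 to 0.56. Follicle cells had 0 to 2 members higher and 0 to 1 lower, with 480 to 663 genes higher and 249 to 420 lower. Krt79+Defb6 minus basal gave 1703 to 2896 genes higher and 1451 to 2628 lower, and Krt79+Defb6 minus spinous 4 to 16 members higher, 157 to 839 genes higher and 27 to 500 lower. Cycling cells had 3 to 4 members lower. Of the 18 members higher in Krt79+Defb6 than in spinous cells, the calls of Fdft1, Insig1, Mvd, Ebp and Sc5d ended in 9 to 13 of 14 alternatives. Follicle and Krt79+Defb6 groups hold the fewest cells, and members there that missed the threshold are not shown to be alike.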

Other observations

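Outside the groups, 161 cells met no rule, and 8 of them had at least 3 Soat1 UMIs, 2 in replicate 2 and 6 in replicate 3. None of the cells of the layers or the follicle group had as many. In the whole of replicate 1, 7 cells had a Soat1 UMI and none had 3.

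Against spinous cells, Krt79+Defb6 cells had 8 of the 37 tested neighbours of the pathway higher and 1 lower, beside 7.69% and 3.33% of all tested genes. The genes for fatty acids accounted for 6 of them, with Elovl6, an elongase, higher by 3.04 ± 0.38 and Scd1 by 3.03 ± 0.41 on the log2 scale. Without the 10 cells with most Soat1, 2 of the 37 were higher and 1 lower, beside 7.3% and 2.83% of all tested genes. These counts lie near the background. Scd2 was higher by 0.84 and Elovl6 by 0.84, and Mylip was lower. Scd1 was not called, at 0.14 (edgeR adjusted p = 0.618). Scd1 stood at 18469 plain CPM in those 10 cells and at 152 in the other 108. In cycling basal cells Tmem97, a sterol-responsive membrane protein that binds Npc1, was higher by 2.09 ± 0.14 (edgeR adjusted p = 1.17e-15).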
